A study of Mus musculus with 19 samples.

Results

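Chemokines are small secreted proteins that attract leukocytes, and this account covers the chemokine and chemokine receptor genes of mouse liver in 6 groups of animals that differ in genotype and diet. Members were the genes whose platform gene symbol starts with Ccl, Cxcl, Cx3cl, Xcl, Ccr, Cxcr, Cx3cr or Xcr and a digit, together with the Ackr genes, where a probe set carries that symbol alone. The rule used names and no measured value. It found 56 of the 22180 genes measured: 19 CC ligands, 13 CXC ligands, 2 ligands of the CX3C or XC class, 10 CC receptors, 6 CXC receptors, 2 receptors of the CX3C or XC class and 4 atypical receptors. The 56 genes were read by 57 probe sets, since Ccl27a has 2, and the probe set with the highest mean stood for its gene. Among the chemokine genes in the mouse RefSeq annotation, Ccl19, Ccl21a, Ccl21b, Ccl21c, Ccl21d and Ccl27b had no probe set with a single symbol and were not analysed here.

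Chemokines share a fold held by disulphide bonds and are named after the spacing of their first cysteines, as CC, CXC, CX3C or XC. They bind receptors with several membrane-spanning helices that signal through inhibitory G proteins, and one ligand often serves more than one receptor. Atypical receptors bind chemokines without that signal and remove or transport them. In the liver, resident macrophages (Kupffer cells), sinusoidal endothelium, stellate cells and hepatocytes are known sources of chemokines, and monocytes, neutrophils, natural killer T cells and T cells are known to follow them into the tissue.

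RNA of whole liver was hybridised to Affymetrix whole-transcript arrays, 1 array a sample and 19 in all. Genotypes are spelled WT, KO and TG in the labels, and the food was either normal (ND) or high in fat (HFD). The mice were 2 to 3 months old and had been on their diet for 4 weeks. The series title concerns Kcp (Kielin/chordin-like protein), which is secreted and regulates signalling by bone morphogenetic proteins. Each of WT ND, KO ND, TG ND, WT HFD and KO HFD had 3 arrays and TG HFD had 4. The labels spell out none of the genotype codes and give no promoter for a transgene, extent of a deletion, strain, sex, litter or batch, so no limit of the models can be stated from them. Each sample title carries a number of its own, but no label says that the samples came from separate animals, and the p-values then measure only the spread between these samples. Replicate numbers below are names in the order of deposit.

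Values are on the log2 scale, where a difference of 1 is a doubling. Array medians lay between 0.98 and 1.07, correlations between arrays of a group lay between 0.968 and 0.979, and no pair of arrays was identical. WT HFD replicate 1 and TG HFD replicate 2 were least like the arrays of the other groups, with mean correlations of 0.963 and 0.965, and TG HFD replicate 2 had the highest list means of neutrophil, monocyte, B and plasma cell and erythroid markers. The liver label held: albumin (Alb) had group means of 12.3 to 12.4 on the log2 scale. Kcp itself had log2 group means of 5.56 and 5.66 in TG on ND and HFD, against 2.55 and 2.23 in WT and 2.03 and 2.01 in KO. The sources used here do not say whether its probe set lies in the part deleted in KO, so the level in KO checks nothing. A background level of 0.90 was taken from 1394 olfactory and vomeronasal receptor genes, families held to be silent in liver, as the 95th percentile of their means.

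The background level was passed in at least 1 group by 22 of 34 ligands (64.7%) and 13 of 22 receptors (59.1%). The other 21 of the 56 members (37.5%) had a mean below it in each of the 6 groups, as had 34.7% of all genes. At the stricter level of 2, 15 members exceeded it in at least 1 group, and these were 13 ligands, the receptor Ccr3 and the atypical receptor Ackr2. By class, 6 of 19 CC ligands and 7 of 13 CXC ligands passed that level, as did 1 of 10 CC receptors, 0 of 6 CXC receptors and 1 of 4 atypical receptors. The 21 were Ccl1, Ccl2, Ccl8, Ccl12, Ccl17, Ccl20, Ccl22, Ccl28, Cxcl3, Cxcl5, Cxcl15 and Cx3cl1 among the ligands and Ccr1, Ccr1l1, Ccr6, Ccr8, Ccr9, Ccr10, Cxcr5, Ackr3 and Ackr4 among the receptors, with highest group means of 0.45 to 0.90. Between the background level and 2 lay 20 members: Ccl3, Ccl4, Ccl7, Ccl11, Ccl26, Cxcl2, Cxcl10, Cxcl17, Xcl1, Ccr2, Ccr4, Ccr7, Cxcr1, Cxcr2, Cxcr3, Cxcr4, Cxcr6, Cx3cr1, Xcr1 and Ackr1. Their highest group means ran from 0.94 to 1.75, and of them Cxcr6 was called in a comparison. Across all genes 56.5% had a mean below 2 over the 19 arrays, a measure unlike the highest group mean used for the members. In bulk tissue, fewer cells of a type and less RNA per cell cannot be told apart, which holds for each level and difference below.

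**Figure D1:**
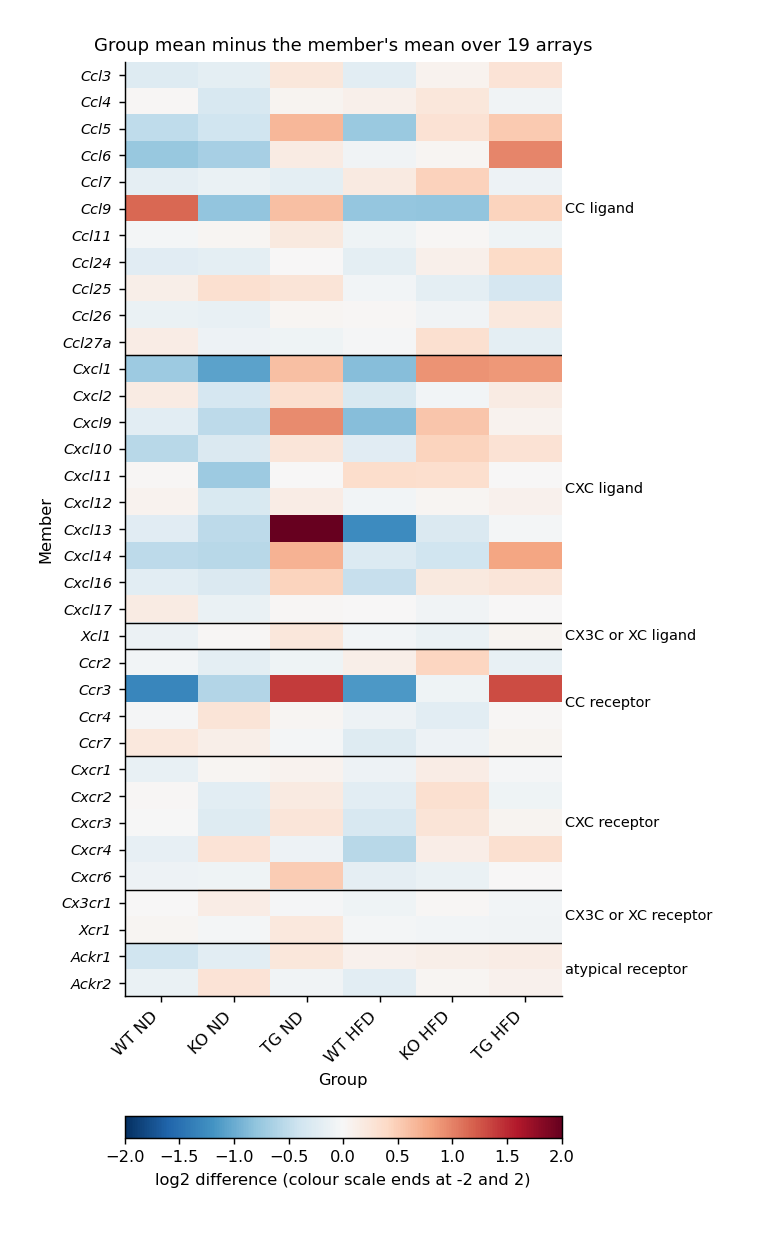
Each row is 1 of the 35 members whose mean passed the background level in at least 1 group, and each column is a group. Colour gives the group mean minus the member's mean over 19 arrays, in log2 units, on a scale that ends at -2 and 2, and rows are ordered by class. Ccr3 is red in both TG columns, Ccl9 is red in WT ND and in both TG columns and blue in the other three, and Cxcl13 reaches the end of the scale in TG ND.

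Genotype and diet were compared in 11 ways in 1 limma model of all 19 arrays, and a gene counted as called at a Benjamini-Hochberg adjusted p under 0.05 over all 22180 genes. In at least 1 comparison 7 members were called: the ligands Ccl5, Ccl9, Cxcl9, Cxcl13 and Cxcl16 and the receptors Ccr3 and Cxcr6. The share of all genes called in at least 1 comparison is not given here, so this count serves only to list the members. Shares of all genes are given below for each comparison. Comparisons that share a group share its arrays, so their counts are not independent of each other. Where arrays are said below not to overlap, this describes their values only. The share of all genes without overlap is not given here, so a lack of overlap adds no weight to a difference.

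TG livers had more RNA of the receptor Ccr3 than WT livers on either diet. On ND, TG against WT gave 2 members higher, Ccr3 and Cxcl13, and none lower, where 1.3% of all genes were called. The median difference of the 56 members was 0.07, beside -0.00329 for all genes. On HFD, TG against WT gave 4 members higher, Ccr3, Ccl9, Cxcl16 and Ccl5, and none lower, where 3.57% of all genes were called. The median difference was again 0.07. Of the 56, 34 differences on ND and 36 on HFD were above 0.

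KO livers had less Ccl9 than WT livers on ND. KO against WT on ND gave 1 member lower, Ccl9, where 2.98% of all genes were called, and a median difference of -0.02. KO against WT on HFD gave 0 members by limma, where 0.338% of all genes were called. At an unadjusted p under 0.05 the HFD comparison held 7 members, beside 8.32% of all genes: Cxcl9, Cxcr3, Ccr3, Cxcl16, Cxcl1 and Ccl5 with differences above 0 and Ccl28 with one of -0.32. Set against TG, KO gave 6 members lower on ND (Ccr3, Cxcl13, Ccl9, Cxcl9, Cxcl16 and Cxcr6; 4.2% of all genes called) and 2 lower on HFD (Ccr3 and Ccl9; 2.35% of all genes called). Some cell markers fell in the same comparisons. Of 20 Kupffer cell and macrophage markers, 10 fell on ND (median difference of the 20, -0.99) and 5 on HFD (median -0.60). Of 17 T and NK cell markers, Cd4 and Cd3g fell on ND, by -1.35 and -1.36 (median of the 17, -0.28). On HFD Cd4 alone of them fell, by -1.14 (median -0.14). Of 11 B and plasma cell markers, Ighm fell on ND, by -2.12 (median of the 11, -0.15). On HFD Ighm and Jchain fell, by -2.23 and -1.19 (median -0.12). The part of these cell markers in the lower member values was not tested.

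The diet comparison called 1 member in WT and none in the other genotypes. HFD against ND in WT gave 1 member lower, again Ccl9, where 1.32% of all genes were called. In KO the diet comparison gave 0 members by limma (0.803% of all genes called), with 14 of 56 at an unadjusted p under 0.05, beside 11.3% of all genes. In TG it also gave 0 (0.906% of all genes called), with 6 of 56 at an unadjusted p under 0.05, beside 10.1% of all genes. The difference between diet effects was tested directly. That of TG minus WT gave 0 members by limma (0.221% of all genes called), with 2 of 56, Ccl9 and Ccl2, at an unadjusted p under 0.05 beside 7.87% of all genes, and that of KO minus WT gave 1, Ccl9 (0.825% of all genes called).

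**Figure D2:**
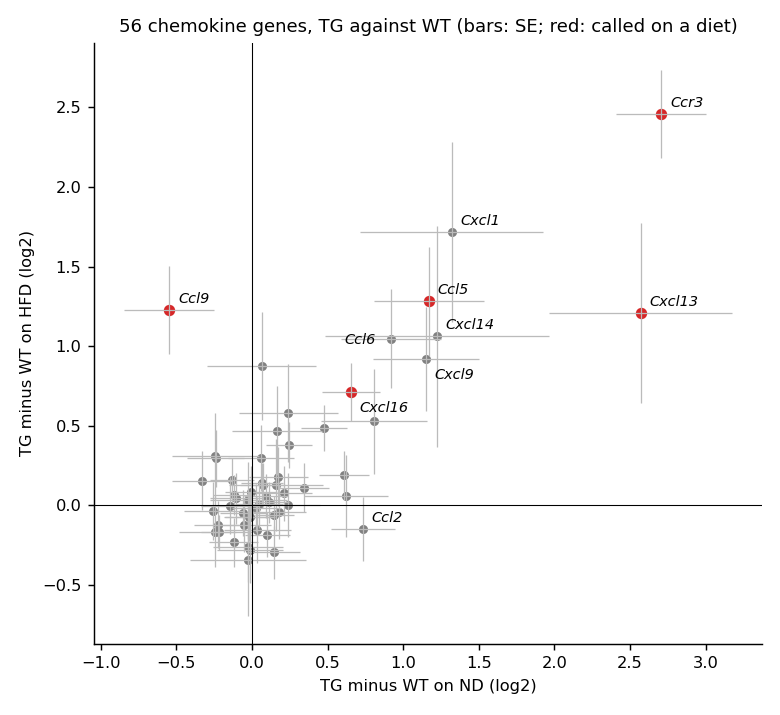
Each point is 1 of the 56 members. The horizontal axis gives the log2 difference TG minus WT on ND and the vertical axis that on HFD; grey lines are standard errors and red points passed the test on a diet. Ccr3 lies far from the rest at 2.71 and 2.46, and Ccl9 is the red point with opposite signs, at -0.55 on ND and 1.22 on HFD.

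Ccl9 (also called MIP-1 gamma), a CC ligand of the receptor Ccr1, was called in 6 of the 11 comparisons and ranged from 6.09 to 8.87 on the log2 scale over the 19 arrays. In WT ND its log2 values were 8.87, 8.84 and 8.76, and in KO ND 7.09, 6.09 and 7.48. Every KO ND array was thus below every WT ND array. The fall was 3.83-fold, a log2 difference of -1.94 ± 0.30 (SE; limma adjusted p = 0.000881).

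Ccl9 also fell in WT mice on HFD. WT HFD values were 7.40, 6.71 and 6.58 on the log2 scale, again with no overlap with WT ND, and the difference was -1.92 ± 0.30 (SE; limma adjusted p = 0.00164). KO HFD values were 7.06, 6.84 and 6.75, which overlapped with those of KO ND, and the group means of KO were 6.89 on ND and 6.88 on HFD. The diet effect in KO minus that in WT was 1.92 ± 0.42 (SE; limma adjusted p = 0.0371). This last call was lost without any one of 10 of the 12 arrays it rests on, at adjusted p-values of 0.0503 to 0.103, and was kept without KO ND replicate 3 or WT HFD replicate 1. The calls of KO against WT on ND and of HFD against ND in WT were kept without any single array.

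In TG livers Ccl9 was high on both diets. TG ND arrays read 8.14, 8.39 and 8.29 on the log2 scale and TG HFD arrays 8.00, 8.80, 7.95 and 7.75. On ND these values lay below those of WT, without overlap, by -0.55 ± 0.30 (SE; limma adjusted p = 0.591), which did not pass. On HFD all 4 TG arrays lay above the WT arrays, by 1.22 ± 0.28 (SE; limma adjusted p = 0.0171). That call was lost without WT HFD replicate 2 (adjusted p = 0.0677), WT HFD replicate 3 (0.0964) or TG HFD replicate 2 (0.0531), and when the WT and TG arrays on HFD were fitted alone (0.0848). The diet effect in TG minus that in WT was 1.77 ± 0.40 (SE; limma adjusted p = 0.0986) and did not pass. KO lay below TG by -1.39 ± 0.30 (SE) on ND and by -1.24 ± 0.28 (SE) on HFD, at limma adjusted p-values of 0.00949 and 0.0212. The ND call was lost without KO ND replicate 2 (0.0566), and the HFD call without KO HFD replicate 2 (0.0854), KO HFD replicate 3 (0.0902) or TG HFD replicate 2 (0.0641). With the compared arrays fitted alone these 2 calls had adjusted p-values of 0.0589 and 0.0587.

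A marker of macrophages was called in the same direction as Ccl9 wherever Ccl9 was called. It also rose in a comparison where Ccl9 was not called. Marco, a scavenger receptor of macrophages, had log2 means of 3.60 ± 0.26 (SD, n = 3) in WT ND, 1.84 ± 0.45 (SD, n = 3) in KO ND and 1.79 ± 0.47 (SD, n = 3) in WT HFD. In TG its means were 6.81 ± 0.11 (SD, n = 3) on ND and 5.54 ± 0.44 (SD, n = 4) on HFD, and it rose against WT on ND by 3.21 ± 0.39 (SE; limma adjusted p = 0.000147), where Ccl9 was lower by a difference of -0.55 that did not pass. On HFD Marco rose in TG against WT by 3.75 (limma adjusted p = 1.62e-05). In KO against TG it fell by -4.97 on ND and -3.05 on HFD (limma adjusted p = 8.25e-07 and 0.000165). It was the single gene of 20 measured Kupffer cell and macrophage markers to fall in KO against WT on ND (-1.76, limma adjusted p = 0.017) and in HFD against ND in WT (-1.81, limma adjusted p = 0.025), and its diet effect in KO minus that in WT was 2.46 (limma adjusted p = 0.0423). Clec4f, which marks Kupffer cells, had log2 means of 6.00 in WT ND, 6.18 in KO ND and 6.27 in WT HFD. The mean of the 20 markers was 4.17 in WT ND, 4.27 in KO ND and 4.23 in WT HFD, with array ranges of 4.12 to 4.24, 4.08 to 4.53 and 4.07 to 4.39. Their part in the Ccl9 result was not tested.

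The DNA just upstream of Ccl9 is shown beside that of Ccl6, its neighbour on chromosome 11 and a related CC ligand, because the 2 genes lie side by side and of them Ccl9 alone was called. Each sequence holds the 250 bases before the gene's start in RefSeq on build GRCm38.p6, on the minus strand, at chr11:83578637-83578886 for Ccl9 and chr11:83593088-83593337 for Ccl6. Capitals mark matches, on either strand, to 8 motifs that were searched.
Ccl9: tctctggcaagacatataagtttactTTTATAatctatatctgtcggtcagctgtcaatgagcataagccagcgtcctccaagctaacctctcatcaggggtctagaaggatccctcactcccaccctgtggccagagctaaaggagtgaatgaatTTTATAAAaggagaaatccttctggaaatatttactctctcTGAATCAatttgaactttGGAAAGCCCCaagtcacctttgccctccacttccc
Ccl6: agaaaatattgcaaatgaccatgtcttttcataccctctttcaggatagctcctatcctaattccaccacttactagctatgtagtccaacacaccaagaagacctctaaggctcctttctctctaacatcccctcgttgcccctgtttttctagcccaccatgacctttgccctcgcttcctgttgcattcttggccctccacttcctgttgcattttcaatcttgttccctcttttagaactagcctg
The Ccl9 window held 1 match to the NF-kappaB motif, 1 to the AP-1 motif TGANTCA and 3 to the TATA box motif TATAAA, of which 2 overlap each other; the Ccl6 window held 0. Over 32851 mouse promoter windows of this length, 7.25% held the NF-kappaB motif, 6.75% the AP-1 motif and 12.4% the TATA box motif. Among the 46 windows found for 42 of the 56 members the counts were 11, 5 and 14. The other motifs searched were the interferon motifs TTCNNNGAA (7.02% of windows, 4 of 46 member windows) and GAAANNGAA (7.13%, 7 of 46), the PU.1 motif GAGGAAGT (2.44%, 1 of 46), the SMAD palindrome GTCTAGAC (0.167%, 0 of 46) and the BMP element GGCGCC (9.59%, 2 of 46). A match describes the letters and does not show a bound site.

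Ccl6, which like Ccl9 is a mouse ligand of Ccr1, was not called in any of the 11 comparisons. Its log2 values were 1.76, 1.06 and 2.28 in WT ND, 2.14, 1.84 and 1.41 in KO ND and 2.58, 2.40 and 2.89 in TG ND. On HFD they were 2.44, 2.35 and 2.36 in WT, 2.44, 2.56 and 2.50 in KO and 3.55, 4.40, 2.71 and 3.06 in TG. TG arrays lay above WT arrays on both diets without overlap. The differences TG minus WT were 0.92 ± 0.33 (SE; limma adjusted p = 0.272) on ND and 1.05 ± 0.31 (SE; limma adjusted p = 0.0729) on HFD.

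Ccl5 (RANTES), a ligand of Ccr1 and Ccr3 made by T cells and other leukocytes, rose in TG against WT on HFD. Log2 values on HFD were 2.39, 2.03 and 2.55 in WT, 4.30, 3.11 and 2.66 in KO and 3.44, 4.32, 3.08 and 3.58 in TG. All TG values were above all WT values, by 1.28 ± 0.34 (SE; limma adjusted p = 0.0431), a 2.43-fold difference. On ND the values were 2.74, 2.15 and 2.81 in WT, 2.63, 2.77 and 2.64 in KO and 3.91, 3.09 and 4.20 in TG. TG again lay above WT without overlap, by 1.17 ± 0.36 (SE; limma adjusted p = 0.168), which did not pass. The HFD call was lost without any one of 6 of the 7 arrays compared, at adjusted p-values of 0.0672 to 0.15, and was kept without TG HFD replicate 3. It was also lost with array weights (0.0866), with the WT and TG arrays on HFD fitted alone (0.0632), and without WT HFD replicate 1 and TG HFD replicate 2 together (0.238).

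The remaining CC ligands were dim or moved little. Ccl25, the ligand of Ccr9, ranged from 3.07 to 4.27 over the 19 arrays, and its lowest adjusted p in the 11 comparisons was that of HFD against ND in TG (-0.60 ± 0.17 SE; limma adjusted p = 0.117). Ccl27a, a ligand of Ccr10, ranged from 1.93 to 3.15 and its group means from 2.39 to 2.89. Ccl2, the main ligand of the monocyte receptor Ccr2, had group means of 0.10 to 0.87, below the background level in every group. The eotaxins, which bind Ccr3, gave TG minus WT differences of 0.24 on ND and 0.58 on HFD for Ccl24, of 0.24 and 0.00 for Ccl11, and of 0.17 and 0.18 for Ccl26, none of which passed. Ccl24 had group means of 1.69 to 2.30. The macrophage inflammatory proteins Ccl3 and Ccl4 had group means of at most 1.43.

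Among the CXC ligands, Cxcl13, which draws B cells through Cxcr5, rose in TG against WT on ND. Log2 values on ND were 4.43, 3.69 and 3.98 in WT, 3.73, 3.42 and 4.04 in KO and 5.92, 6.54 and 7.35 in TG. The TG arrays stood clear of both other genotypes. The rise over WT was 5.94-fold, a log2 difference of 2.57 ± 0.60 (SE; limma adjusted p = 0.0417), and KO lay below TG by -2.87 ± 0.60 (SE; limma adjusted p = 0.00887). The call against WT was lost without any one of 5 of the 6 arrays, at adjusted p-values of 0.0728 to 0.213, and was kept without TG ND replicate 1. The call of KO against TG was lost without TG ND replicate 3 (0.0534).

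On HFD the Cxcl13 values were lower in TG and spread widely in KO. They were 3.36, 2.36 and 3.28 in WT, 2.97, 2.99 and 5.91 in KO and 4.94, 3.39, 3.75 and 4.75 in TG. TG arrays lay just above WT arrays, by 1.21 ± 0.57 (SE; limma adjusted p = 0.319). HFD against ND in TG was -2.40 ± 0.57 (SE; limma adjusted p = 0.0534), which did not pass. No TG HFD value reached a TG ND value. The diet effect in TG minus that in WT was -1.36 ± 0.83 (SE; limma adjusted p = 0.741). Cxcr5, its receptor, had a highest group mean of 0.82 and was below the background level in every group.

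Cxcl9, which interferon gamma induces and which binds Cxcr3, was called in KO against TG on ND. Its log2 values on ND were 5.22, 5.26 and 5.63 in WT, 5.45, 4.75 and 4.97 in KO and 6.34, 6.22 and 6.99 in TG. TG stood above both other genotypes, and KO minus TG was -1.46 ± 0.35 (SE; limma adjusted p = 0.0206). TG minus WT was 1.15 ± 0.35 (SE; limma adjusted p = 0.156) and did not pass. The call of KO against TG was lost without KO ND replicate 2 (0.106), KO ND replicate 3 (0.0714) or TG ND replicate 3 (0.11).

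On HFD it was KO that held the highest Cxcl9 mean. The values were 4.98, 4.26 and 4.94 in WT, 6.78, 6.01 and 5.59 in KO and 5.69, 4.73, 5.84 and 6.32 in TG. KO arrays lay above WT arrays without overlap, by 1.40 ± 0.35 (SE; limma adjusted p = 0.124), which did not pass. KO minus TG was 0.48 ± 0.33 (SE; limma adjusted p = 0.593). The receptor Cxcr3 had log2 means of 0.44 ± 0.17 (SD, n = 3) in WT HFD and 1.02 ± 0.16 (SD, n = 3) in KO HFD, a difference of 0.59 ± 0.15 (SE; limma adjusted p = 0.142). Cxcl10, another ligand of Cxcr3, had group means of 0.75 to 1.75 and was not called. Cxcl11, the last of the 3 genes of this chromosome 5 run, is annotated as a transcribed pseudogene in the RefSeq reference and had group means of 3.49 to 4.57, with no call.

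Cxcl16, a membrane-bound ligand that cells can shed, and its receptor Cxcr6, known on natural killer T cells of the liver sinusoids, were each called. Cxcl16 values on HFD were 4.48, 4.60 and 4.31 in WT, 5.17, 4.95 and 5.27 in KO and 5.24, 5.37, 5.01 and 5.07 in TG. Both other genotypes lay above WT without overlap. TG minus WT was 0.71 ± 0.18 (SE; limma adjusted p = 0.034), which passed, and KO minus WT was 0.67 ± 0.19 (SE; limma adjusted p = 0.221), which did not. KO minus TG on HFD was -0.04 ± 0.18 (SE; limma adjusted p = 0.952). The TG call was lost without WT HFD replicate 1 (0.101), WT HFD replicate 3 (0.142), TG HFD replicate 1 (0.0799) or TG HFD replicate 2 (0.1), with array weights (0.0608), and without WT HFD replicate 1 and TG HFD replicate 2 together (0.211).

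On ND the Cxcl16 values were 4.49, 4.90 and 4.76 in WT, 4.96, 4.61 and 4.35 in KO and 4.91, 5.73 and 5.47 in TG, with 1 TG array inside the range of KO. KO minus TG was -0.73 ± 0.19 (SE; limma adjusted p = 0.0388), and this call was lost without any one of 4 of the 6 arrays, at adjusted p-values of 0.119 to 0.201. It was also lost after a further quantile normalization (0.058), with array medians subtracted (0.054) and with the compared arrays fitted alone (0.172). Cxcr6 read 1.08, 0.76 and 1.66 in TG ND and 0.33 to 0.75 in the 16 other arrays, so that 2 of its 3 TG ND values and no others passed the background level. KO minus TG on ND was -0.59 ± 0.16 (SE; limma adjusted p = 0.0494), and the call was lost without any one of 5 of the 6 arrays, at adjusted p-values of 0.0856 to 0.229. It was lost too with the mean of all probe sets of a gene (0.0502), with array medians subtracted (0.0567) and with the compared arrays fitted alone (0.223).

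The neutrophil attractant Cxcl1, a ligand of Cxcr2, was higher in the TG and KO HFD arrays than in the WT and KO ND arrays and was not called. On ND its log2 values were 3.87, 3.78 and 3.21 in WT, 2.99, 2.91 and 3.93 in KO and 5.34, 4.51 and 4.97 in TG. On HFD they were 3.24, 3.81 and 3.42 in WT, 4.69, 4.52 and 6.51 in KO and 6.25, 6.52, 4.09 and 3.96 in TG. TG lay above WT on both diets without overlap. The differences of 1.32 ± 0.60 (SE) on ND and 1.72 ± 0.56 (SE) on HFD had limma adjusted p-values of 0.471 and 0.114 and did not pass. HFD minus ND in KO was 1.96 ± 0.60 (SE; limma adjusted p = 0.159) and KO minus WT on HFD was 1.75 ± 0.60 (SE; limma adjusted p = 0.363), again without overlap. Its spread within groups, a pooled SD of 0.85, was larger than that of 99.8% of all genes. Cxcl14 spread more still, with a pooled SD of 1.05 and TG HFD values of 1.98, 6.14, 3.80 and 1.89, and was not called. The median pooled SD of the members was 0.25, against 0.21 for all genes.

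Cxcl12, the ligand of Cxcr4 and Ackr3 that stromal and endothelial cells make constitutively, was steady across the groups. Its 19 values lay between 7.11 and 7.93, its pooled SD was 0.15, and no comparison was called. KO minus TG on ND came nearest, at -0.45 ± 0.14 (SE; limma adjusted p = 0.0793). Xcl1 and Cx3cl1, the ligands of the remaining classes, had highest group means of 0.94 and 0.89.

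**Figure D3:**
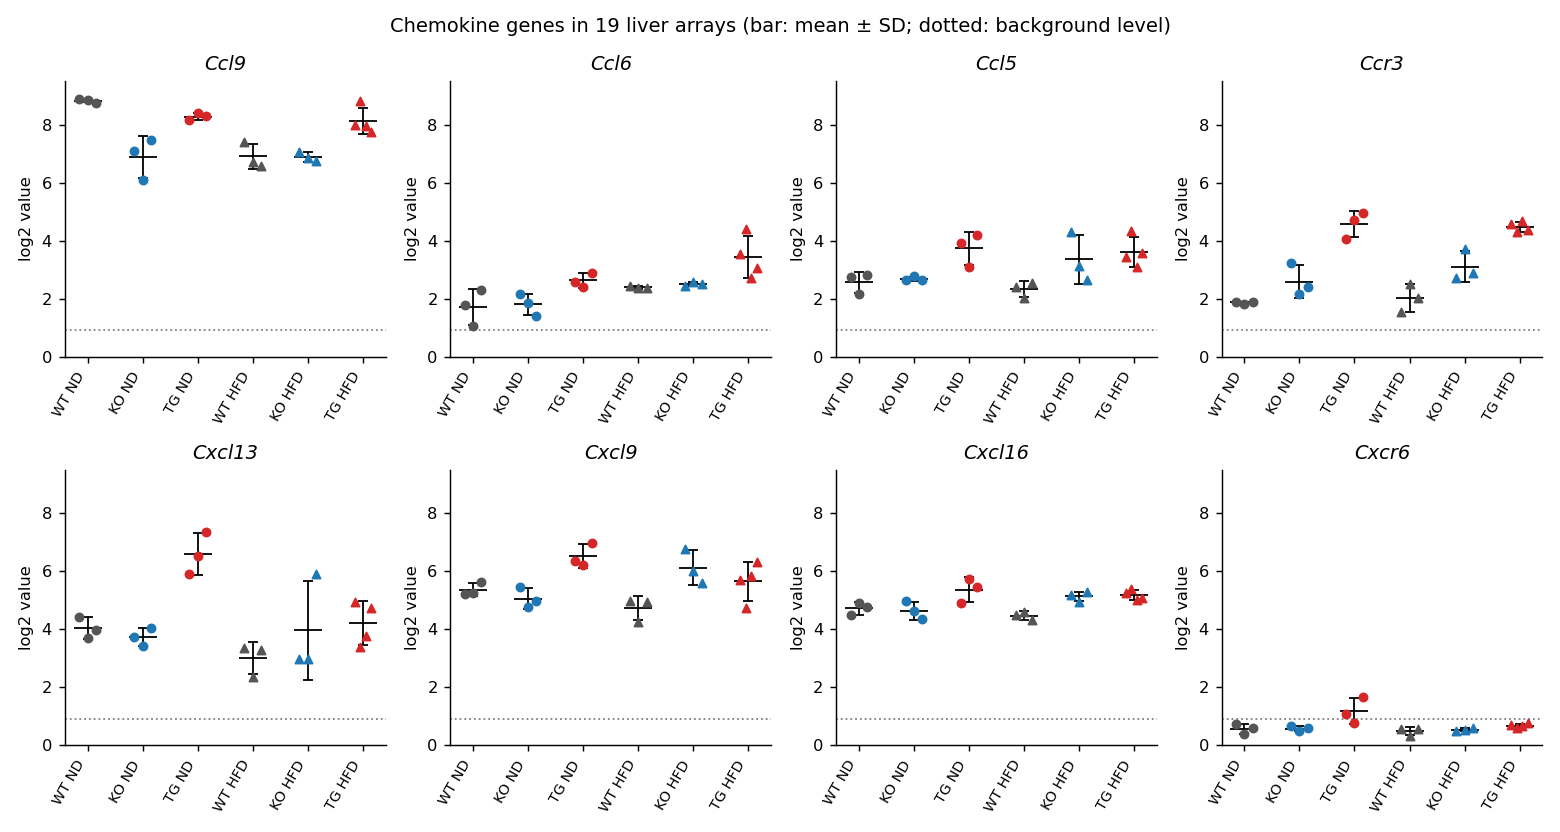
Log2 values of 8 members in the 19 arrays, 1 panel a gene and 1 column a group; points are arrays (circles ND, triangles HFD), bars the mean ± SD, and the dotted line the background level of 0.90. Ccl9 is high in WT ND and in both TG groups, the Ccr3 values of TG lie between 4.06 and 4.96 above all others, and Cxcl13 reaches 5.92 to 7.35 in TG ND.

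Ccr3, the eotaxin receptor best known from eosinophils, gave the largest member difference in TG against WT on both diets. On ND its log2 values were 1.88, 1.83 and 1.89 in WT, 3.21, 2.15 and 2.39 in KO and 4.06, 4.70 and 4.96 in TG. On HFD they were 1.55, 2.50 and 2.01 in WT, 2.70, 3.70 and 2.88 in KO and 4.56, 4.30, 4.68 and 4.36 in TG. All 7 TG arrays lay above all 12 others. TG exceeded WT 6.53-fold on ND, by 2.71 ± 0.30 (SE; limma adjusted p = 4.29e-05), and 5.49-fold on HFD, by 2.46 ± 0.28 (SE; limma adjusted p = 6.7e-05). The calls on both diets were kept without any single array and in each other setting tried. The diet effect in TG minus that in WT was -0.25 ± 0.41 (SE; limma adjusted p = 0.941).

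KO stood between WT and TG in its Ccr3 values. KO minus TG was -1.99 ± 0.30 (SE; limma adjusted p = 0.000666) on ND and -1.38 ± 0.28 (SE; limma adjusted p = 0.0105) on HFD. The second call was lost without KO HFD replicate 1 (0.0739) or KO HFD replicate 3 (0.0603). KO arrays lay above WT arrays on both diets without overlap, by 0.72 ± 0.30 (SE; limma adjusted p = 0.274) on ND and 1.07 ± 0.30 (SE; limma adjusted p = 0.187) on HFD, and neither difference passed.

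Markers of eosinophils were too dim to show whether eosinophils changed along with Ccr3. The granule protein genes Epx and Prg2 and the surface lectin Siglecf had log2 group means of 0.39 to 0.69, 0.28 to 0.55 and 0.61 to 0.78, and each of the 5 eosinophil markers looked up (with Prg3 and Il5ra, a list chosen after the data were seen) was below the background level in all 6 groups. The mean of the 5 was 0.55 in WT ND and 0.58 in TG ND, and 0.63 in WT HFD and 0.62 in TG HFD. Kupffer cell and macrophage markers rose in TG against WT, 13 of 20 on ND with a median of 1.30 and 13 of 20 on HFD with a median of 1.21. The 20-gene mean ranged from 5.14 to 5.60 in TG ND and 5.04 to 5.49 in TG HFD, against 4.12 to 4.24 in WT ND and 4.07 to 4.39 in WT HFD. Clec4f rose by 1.43 ± 0.18 (SE) on ND and 1.42 ± 0.17 (SE) on HFD. Their part in the rise of Ccr3, Ccl5, Ccl9, Cxcl13 and Cxcl16 was not tested.

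**Figure D4:**
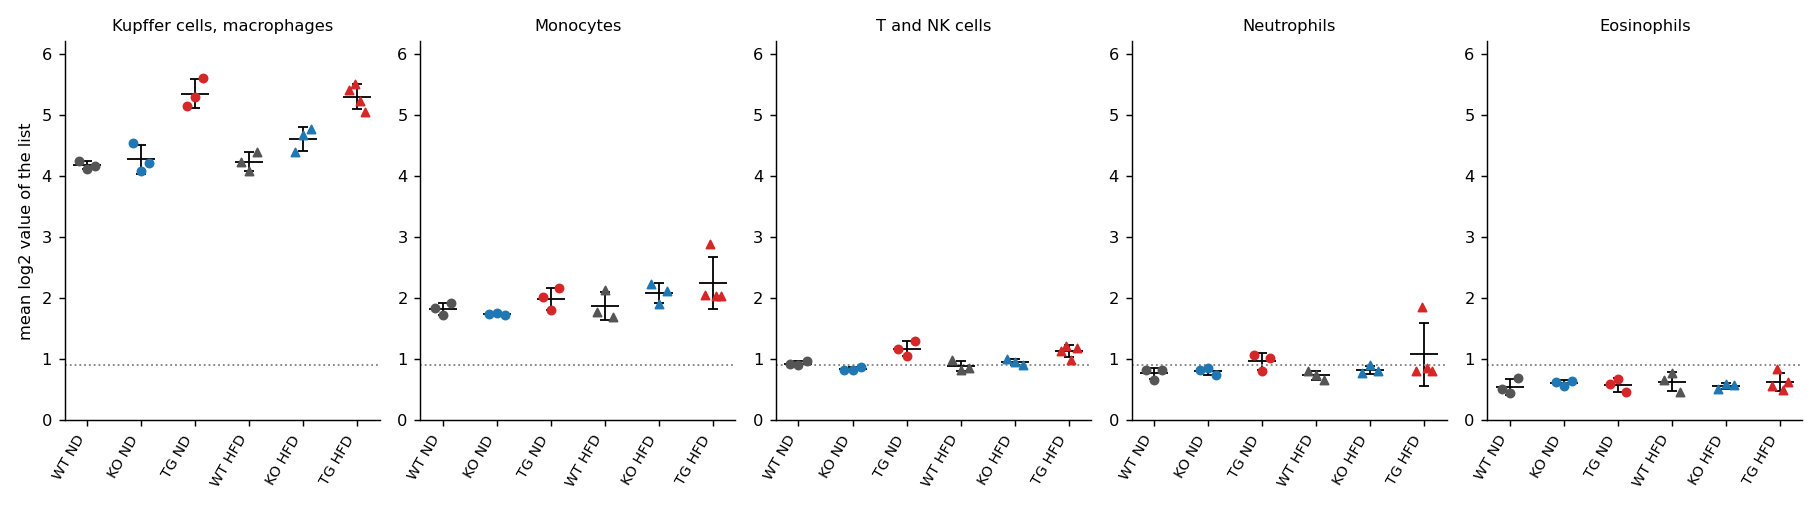
Mean log2 value of the genes in 5 marker lists, for each array (points) with the group mean ± SD (bars); circles are ND and triangles HFD, and the dotted line is the background level of 0.90. The macrophage list runs from 5.04 to 5.60 in the TG arrays and from 4.07 to 4.76 in the others, while the eosinophil list stays below the line in all 19 arrays.

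The upstream sequences of Ccr3 and of the CXC ligands Cxcl13 and Cxcl9, the called members besides Ccl9 with a mean above the background level that the RefSeq promoter table holds, are given for the same reason, to set the called genes side by side. They span the 250 bases before the start on GRCm38.p6, at chr9:124021721-124021970 on the plus strand for Ccr3, chr5:95956689-95956938 on the plus strand for Cxcl13 and chr5:92328080-92328329 on the minus strand for Cxcl9. Capitals again mark motif matches on either strand.
Ccr3: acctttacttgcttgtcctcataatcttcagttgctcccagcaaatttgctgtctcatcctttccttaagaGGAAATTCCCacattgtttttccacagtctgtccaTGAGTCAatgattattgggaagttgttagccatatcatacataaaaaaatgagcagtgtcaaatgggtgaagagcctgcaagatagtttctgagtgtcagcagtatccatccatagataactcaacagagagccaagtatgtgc
Cxcl13: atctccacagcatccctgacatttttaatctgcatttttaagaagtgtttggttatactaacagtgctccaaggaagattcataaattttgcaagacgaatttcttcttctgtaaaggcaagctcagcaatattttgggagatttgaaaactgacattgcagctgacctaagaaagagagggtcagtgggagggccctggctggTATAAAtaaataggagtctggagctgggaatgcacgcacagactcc
Cxcl9: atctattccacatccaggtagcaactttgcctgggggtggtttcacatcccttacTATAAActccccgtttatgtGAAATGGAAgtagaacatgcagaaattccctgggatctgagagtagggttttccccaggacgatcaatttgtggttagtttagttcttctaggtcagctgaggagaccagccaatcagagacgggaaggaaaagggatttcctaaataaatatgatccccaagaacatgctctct
Ccr3 had 1 match to the NF-kappaB motif and 1 to the AP-1 motif, Cxcl13 had 1 to the TATA box motif, and Cxcl9 had 1 to the interferon motif GAAANNGAA and 1 to the TATA box motif. The SMAD palindrome and the BMP element, searched because Kcp acts on that pathway, had 0 matches in the 5 windows shown.

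The other receptors were near the background level. Ccr2, the receptor of Ccl2 on monocytes, had group means of 0.92 to 1.55 and TG minus WT differences of -0.03 on ND and -0.26 on HFD. Cxcr4 had group means of 0.68 to 1.56 and Cx3cr1, a receptor of patrolling monocytes and other myeloid cells, of 1.03 to 1.25. Ccr1, the receptor of Ccl9 and Ccl6, had a highest group mean of 0.61, below the background level. None of these was called in any of the 11 comparisons.

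Atypical receptors gave no call. Ackr2, which takes up inflammatory CC ligands, was the one with a mean above 2, with values of 2.07 to 3.10 over the 19 arrays and group means of 2.26 to 2.74. Ackr1, known from red cells and venules, had group means of 0.39 to 1.02, and Ackr3, which takes up Cxcl12, of 0.60 to 0.90. The largest of their differences in TG against WT was that of Ackr1 on ND, 0.62 ± 0.28 (SE; limma adjusted p = 0.448).

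Many members lie side by side in the genome, in runs that arose by gene duplication. By the order of genes in the RefSeq annotation, 29 of the members fall into 6 runs on 4 chromosomes. In the chromosome 11 run of Ccl5, Ccl9, Ccl6, Ccl3 and Ccl4, 0 of 5 members were below the background level in all groups. In the run of Ccl2, Ccl7, Ccl11, Ccl12, Ccl8 and Ccl1 on that chromosome, 4 of 6 were, beside 34.7% of all genes. KO against WT on ND gave -1.94 for Ccl9 and 0.12 and 0.09 for Ccl5 and Ccl6 on either side of it. In the receptor run on chromosome 9, Ccr3 differed by 2.71 and 2.46 in TG against WT on ND and HFD, and its neighbours Ccr1l1 and Ccr2 by -0.06 and -0.12 and by -0.03 and -0.26. The chromosome 5 run of Cxcl5, Cxcl3, Cxcl15, Cxcl1 and Cxcl2 had 3 of 5 members below background and Cxcl1 as the one member with a mean above 2.

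**Figure D5:**
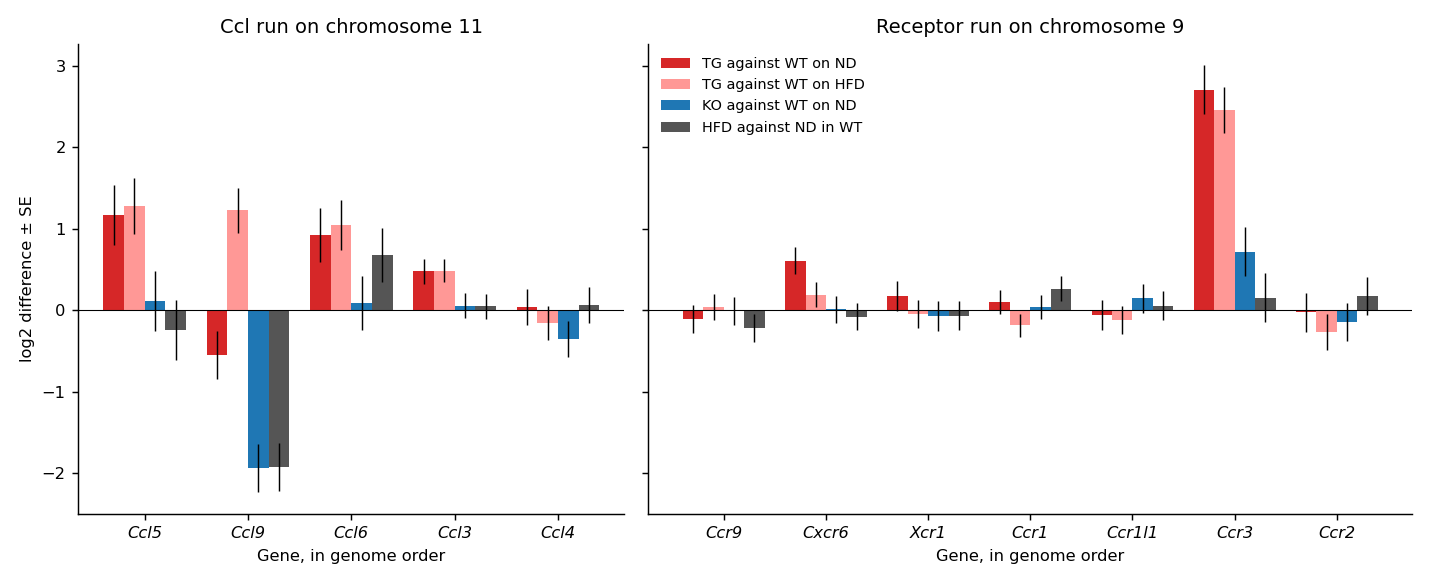
Log2 differences ± SE (bars and lines) of 4 comparisons for the genes of 2 runs, ordered along the chromosome: the Ccl run on chromosome 11 at left and the receptor run on chromosome 9 at right. Ccl9 stands apart from its neighbours with -1.94 in KO against WT on ND and -1.92 in HFD against ND in WT, and Ccr3 with 2.71 and 2.46 in TG against WT.

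Genes that carry the signal of chemokine receptors into the cell were tested beside the members. Of 30 such genes measured, TG against WT gave 2 higher on ND and 4 higher on HFD, with medians of 0.42 and 0.32. Rac2, a small GTPase of leukocytes that drives cell movement, rose by 1.76 ± 0.22 (SE; limma adjusted p = 0.000244) on ND and 1.28 ± 0.21 (SE; limma adjusted p = 0.00172) on HFD. Its activator Dock2 rose by 0.91 on both diets, and on HFD Vav1 and Grk3 rose as well, by 1.07 and 1.01. For neither of these was the difference between the diets called. Rgs16, which ends G protein signals, rose in KO against WT on ND by 4.94 ± 0.69 (SE; limma adjusted p = 0.000405) and in HFD against ND in WT by 3.23 ± 0.69 (SE; limma adjusted p = 0.0232), and Ccl9 fell in both of these. In HFD against ND in TG, where Ccl9 did not pass, Rgs16 rose by 2.79 ± 0.64 (SE; limma adjusted p = 0.0465). KO against TG on ND gave 1 higher, Rgs16, by 3.32 (limma adjusted p = 0.00784), and 5 lower: Rac2, Dock2, Vav1, Rgs2 and Pik3cg. Ccl9 was lower there too, by -1.39. On HFD KO against TG called 0 of the 30 genes, while Ccl9 was lower by -1.24. Rgs16 was also not called in TG against WT on HFD or in the diet effect in KO minus that in WT, where Ccl9 was called. A link between Rgs16 and Ccl9 was not tested.

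Adhesion genes, which hold leukocytes that chemokines have stopped, were a further list. Of 20 measured, 5 rose in TG against WT on ND (Itgal, Itgb2, Selplg, Cd44 and Vcam1; list median 0.28) and 4 on HFD (Itgal, Vcam1, Itgb2 and Selplg; list median 0.20). Itgal, the alpha chain of the integrin LFA-1, rose by 1.69 ± 0.12 (SE; limma adjusted p = 9.76e-08) on ND and by 1.43 ± 0.11 (SE; limma adjusted p = 8.96e-07) on HFD. It was also higher in KO than in WT on HFD, by 1.02 ± 0.12 (SE; limma adjusted p = 0.000274). Vcam1 rose in KO against WT on ND by 1.17 ± 0.26 (SE; limma adjusted p = 0.0193).

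Of 29 cytokine and NF-kappaB genes that are known to act upstream of chemokines, 1 rose in TG against WT on ND and 4 on HFD, with list medians of 0.17 and 0.09. On ND this was Il1b, by 1.64 ± 0.33 (SE; limma adjusted p = 0.0157). On HFD it was the receptors Il1r1, Tlr4 and Tnfrsf1b and the inhibitor Nfkbia, by 1.91, 0.56, 0.80 and 0.59. Ifng, Il6, Il4 and Il10 were below the background level in all 6 groups. Of 4 chemokine-related genes outside the naming rule, 0 were called in the 11 comparisons.

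Markers of the leukocytes that chemokines attract were counted in the same way. The monocyte list and the neutrophil list each include 1 of the members, so they are not fully separate from them. In TG against WT on HFD, 1 of 17 T and NK cell markers rose (Cd4, by 1.13), 1 of 11 monocyte markers (Ly6c2, by 1.43) and 1 of 11 B and plasma cell markers (Ighm). On ND the counts were 0 of 17, 1 of 11 (Plac8, by 0.88) and 0 of 11. In KO against TG on ND, 2 of 17 fell (Cd4 and Cd3g), 1 of 11 (Plac8) and 1 of 11 (Ighm), and on HFD 1 of 17 (Cd4), 0 of 11 and 2 of 11 (Ighm and Jchain). The T and NK list had array ranges of 0.90 to 0.97 in WT ND, 1.05 to 1.30 in TG ND, 0.82 to 0.99 in WT HFD and 0.99 to 1.22 in TG HFD, with Cd3d, Cd28, Gzma, Gzmb and Tbx21 below background in all groups. As a list mean, neutrophil markers read 1.85 in TG HFD replicate 2 and 0.66 to 1.07 in the 18 other arrays, with S100a8, Ly6g, Mmp8, Camp and Trem1 below background, and 0 of 14 were called in TG against WT on either diet. TG HFD replicate 2 also had the highest list means of monocyte (2.89), B and plasma cell (2.40) and erythroid markers (1.74), and the highest of all arrays' values of Ccl5 (4.32), Ccl6 (4.40), Ccl24 (3.29), Cxcl1 (6.52) and Cxcl14 (6.14). Without it the calls of Ccl5, Ccl9 and Cxcl16 in TG against WT on HFD were lost (limma adjusted p = 0.134, 0.0531 and 0.1). That loss was not particular to this array: all of these calls were also lost without WT HFD replicate 3 (limma adjusted p = 0.0821, 0.0964 and 0.142). The part of these markers in the member values was not tested.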

How the data were processed

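The deposited table holds 1 value per probe set and array for 19 arrays. Its scale is not stated; the values were read as log2 from their range, and the tools limma, affy and RMA are named, without version, role or order, in the submitters' processing notes, so that per the labels the authors' background correction and normalization are not given in the sources used here. Of 41345 probe sets, 23521 carry 1 gene symbol of the platform annotation and stand for 22180 genes, each by its probe set of highest mean; 33 chemokine probe sets with several symbols were left out. All genes were fitted with lmFit and eBayes (limma 3.58.1, R 4.3.3) in a model of 6 group means over 19 arrays, with 9 comparisons of 2 groups and 2 differences of diet effects, and p-values were Benjamini-Hochberg adjusted over all genes within a comparison (called under 0.05). Arrays give no read depth; their number, 3 or 4 a group, limits the precision. Named are the members called in any comparison, the 8 others with the highest means and a set of well-known members; other members appear where they are a ligand, receptor or neighbour of a named one. The members, the gene lists and the tests were chosen with earlier results of these data known. The fit was tested on simulated data: of 50 genes changed by 1 on the log2 scale it recovered 70% in TG against WT on ND and 78% on HFD, and of 50 changed by 0.5, 16% and 28%. The changed genes were drawn from all genes with a mean of at least 2. Of the 56 members 41 had a mean below 2 in all groups, so these rates need not hold for the members. Promoter sequences are from RefSeq (GRCm38.p6). Alternatives tried were another quantile normalization, centring on array medians, a filter at a mean of 2, the mean of a gene's probe sets, a variance trend, array weights, the compared arrays alone, and each array left out; leaving out WT HFD replicate 1 and TG HFD replicate 2 together was added after seeing the data.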

Additional observations from a re-analysis of the deposited data

Results flagged for a closer look

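The diet effect on Ccl9 differed between KO and WT. In KO minus that in WT it was 1.92 on the log2 scale (limma adjusted p = 0.0371), with -1.92 in WT and means of 6.89 and 6.88 on the 2 diets in KO. This call was lost without any one of 10 of the 12 arrays it rests on. The diet effect in TG minus that in WT did not pass.

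A signal was also seen in a probe set outside the members, because it carries 5 gene symbols, 1 of them a chemokine gene; it names no single gene. In a fit over all 41345 probe sets it was higher in KO than in WT on ND by 0.863 (limma adjusted p = 0.019), lower on HFD than on ND in KO by -0.923 (limma adjusted p = 0.0357) and higher in KO than in TG on ND by 0.877 (limma adjusted p = 0.0142). Its mean was 4.12 ± 0.43 (SD, n = 3) in KO ND and 3.14 to 3.26 in the 5 other groups. Of the 22 TG HFD groups of named members examined for a single array far from the rest, 0 held one.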

How the results depend on the processing

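For the 17 calls of single members, 179 of 240 recomputed values kept direction and call, 61 kept the direction and lost the call, and 0 reversed. The number of members called in TG against WT on HFD fell from 4 to 2 with array weights, to 2 with the compared arrays fitted alone and to 2 without WT HFD replicate 1 and TG HFD replicate 2 together. KO against TG on HFD gave 1 in place of 2 with the compared arrays fitted alone. HFD against ND in TG gave 1 in place of 0 with a filter at a mean of 2 and 1 with a variance trend. The cause was not tested. Leaving out single arrays gave 1 to 3 members in TG against WT on ND (main 2), 1 to 7 in TG against WT on HFD (main 4; 1 without WT HFD replicate 3, 7 without TG HFD replicate 3), 1 to 2 in KO against WT on ND (main 1; 2 without KO ND replicate 3), 2 to 5 in KO against TG on ND (main 6; 2 without KO ND replicate 2 and 2 without TG ND replicate 3), 0 to 3 in KO against TG on HFD (main 2; 0 without KO HFD replicate 3), 0 to 1 in HFD against ND in TG (main 0; 1 without TG ND replicate 2 and 1 without TG HFD replicate 3) and 0 to 1 in the diet effect in KO minus that in WT (main 1). KO against WT on HFD, HFD against ND in WT and in KO, and the diet effect in TG minus that in WT kept their counts in all settings tried. Cxcr6 could not be fitted with the filter at 2.

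Over all genes, fitting the compared arrays alone gave 248 calls in place of 791 in TG against WT on HFD, 37 in place of 75 in KO against WT on HFD, 156 in place of 522 in KO against TG on HFD, and 139, 62 and 55 in place of 293, 178 and 201 for diet in WT, KO and TG. The filter at 2 gave 292 and 310 for diet in KO and TG and 294 in place of 183 for the diet effect in KO minus that in WT. Without the 2 arrays least like the rest, TG against WT on HFD gave 297, HFD against ND in WT 186, KO against TG on HFD 346 and the diet effect in TG minus that in WT 32 in place of 49. Leaving out single arrays lowered these counts to, at the lowest, 165 from 289 in TG against WT on ND (without TG ND replicate 3), 401 from 791 on HFD (WT HFD replicate 1), 353 from 661 in KO against WT on ND (KO ND replicate 2), 37 from 75 on HFD (KO HFD replicate 1), 568 from 931 in KO against TG on ND (KO ND replicate 2) and 271 from 522 on HFD (KO HFD replicate 2). For diet they were 166 from 293 in WT (WT HFD replicate 1), 27 from 178 in KO (KO ND replicate 2) and 73 from 201 in TG (TG ND replicate 1), and for the diet effects minus that in WT 22 from 49 in TG (WT ND replicate 2) and 88 from 183 in KO (KO ND replicate 2). In each comparison 2 to 7 arrays lowered the count by over 1.5 times when left out, and 0 raised it so. With array medians subtracted, the share of calls that were higher went from 57.3% to 40.5% in HFD against ND in KO and from 54.1% to 43.2% in the diet effect in KO minus that in WT. No paired analysis was possible because the labels give no replicate number shared between groups. Array number, 3 or 4 a group, and levels near background limit what could be called.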
